A study of Mus musculus with 2 samples.

Results

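Glutathione S-transferases couple the tripeptide glutathione to reactive compounds, glutathione peroxidases use it to reduce peroxides, cytochromes P450 of the 3A family oxidise drugs, steroids and bile acids, and aldo-keto reductases of the 1C family reduce carbonyl compounds and steroids. In the small intestine these enzymes meet what is absorbed from the lumen, and enterocytes are known to change their gene programme on their way from the crypt to the villus tip, where they are shed. The 10 genes described here were chosen by symbol from the 55357 genes of the deposited tables, with earlier results of these data known. They are the transferases Gstp1, Gstm1, Gstm3 and Gsta4, the peroxidases Gpx1 and Gpx2, the cytochromes Cyp3a11 and Cyp3a25, and the reductases Akr1c13 and Akr1c19, and all of them had UMIs in both libraries.

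Cells of crypt-enriched small intestinal epithelium were profiled by 3′ single-cell RNA sequencing, with 1 library for each genotype. The library of adip fl/fl mice is called control below. The other, called Villi-Cre, has the genotype label Adipfl/flpVilli-CreT, and the study names its mice adip fl/fl-Villi-Cre. Both groups carry floxed adiponectin alleles, and in Villi-Cre animals a Cre recombinase driven by the villin promoter, active in epithelial cells, is meant to delete them there. The animals were littermates on a C57BL/6 background, and the study describes the sample as pooled from male mice. The spread between animals is therefore unknown, the genotypes cannot be tested against each other, and all intervals below are 95% intervals for counting error only. The kept cells, with more than 500 genes and under 25% of UMIs (unique molecular identifiers, 1 per captured transcript) from mitochondrial genes, were 3069 in the control library with 25687687 UMIs and 5555 in the Villi-Cre library with 48895126 UMIs. The mitochondrial limit removed 4670 of 7739 control barcodes with more than 500 genes, and 4263 of 9818 such Villi-Cre barcodes. A larger share was thus left out of the control library, and the part of this in the levels was not tested. The libraries had 31 barcodes in common, 3 of them among the kept cells of both.

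Clusters were named by marker genes, and each pair of values below gives the control library first and the Villi-Cre library second. Stem-like cells numbered 40 and 121, transit-amplifying (TA)-like cells 46 and 107, villus bottom-like cells 197 and 398, mid-villus-like cells 597 and 1118, and villus tip-like cells 572 and 1681. Stem-like and TA-like cells together are called crypt-like, and a cluster with mid-villus and tip markers alike is called mid-to-tip (589 and 728 cells). Clusters left without a name held 248 and 402 cells. Among them was a cluster from the crypt split with 12 of 12 cycling markers, with 0 and 54 cells. It is not part of the crypt-like class. The median depth was 21583 and 20488 UMIs per cell at the villus bottom and 3779 and 3521 at the tip, while the median mitochondrial share was 6.76% and 5.82% at the bottom and 20.3% in both libraries at the tip. Depth and mitochondrial share thus moved with villus position, and their part in the profiles was not tested. Levels are given as CPM, the UMIs of a gene per 1000000 UMIs of a class. The 10 genes were left out of the genes used for clustering, but classes and levels come from the same cells, so differences between classes are descriptions.

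From the villus bottom to the tip, 8 of the 10 genes were lower by at least 2-fold and 1, Cyp3a11, was higher by at least 2-fold, in each library. Of all genes with enough UMIs, 52.6% in the control library and 51.8% in the Villi-Cre library were lower at the tip by this measure, and 12.5% and 12.4% were higher. Lower levels at the tip were thus common among all genes. The median fold of tip over bottom was 0.0178 over the members and 0.462 over all genes tested in the control library, and 0.0300 and 0.471 in the Villi-Cre library. The members were chosen with earlier results of these data known. Their lower median may follow from that choice and is a description.

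**Figure D1:**
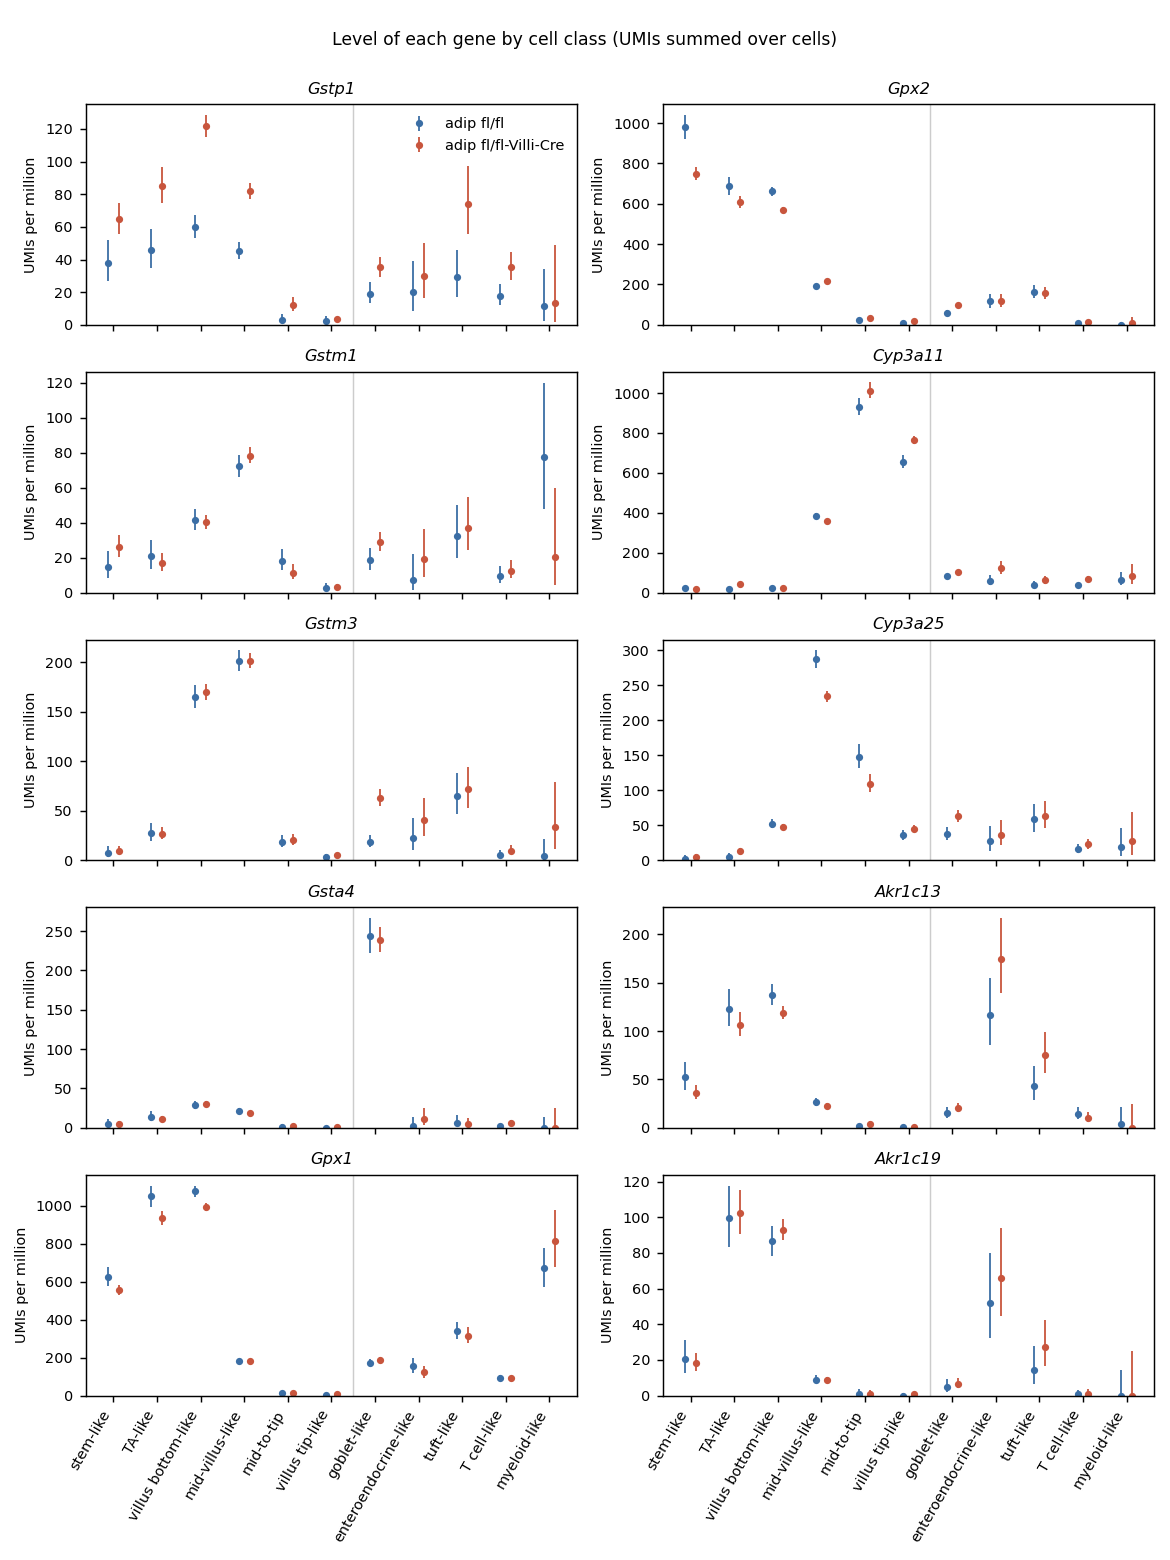
Level of each gene in UMIs per 1000000 UMIs (linear axis from 0) by cell class, from crypt to tip and then in other cell types, for adip fl/fl (control) and adip fl/fl-Villi-Cre. Each point sums the UMIs of a class in 1 library and bars are exact 95% Poisson intervals; Cyp3a11 reached 931 and 1012 in mid-to-tip cells, while Gpx1 went from 1076 and 993 at the villus bottom to 3.79 and 10.3 at the tip.

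Both peroxidases had their highest enterocyte levels in the crypt or at the villus bottom. Gpx1, the widely expressed cytosolic enzyme, had 624, 1049, 1076, 180.3, 13.6 and 3.79 CPM in stem-like, TA-like, villus bottom-like, mid-villus-like, mid-to-tip and villus tip-like cells of the control library. In the Villi-Cre library the same classes had 556, 933, 993, 180.4, 14.2 and 10.3 CPM. The villus bottom level was 284-fold that at the tip in the control library (149.6 to 622) and 96.4-fold in the Villi-Cre library (76 to 124). After every cell was thinned to 2000 UMIs, 87.2% of villus bottom-like and 0.914% of villus tip-like control cells held a Gpx1 UMI, against 82.9% and 2.02% of Villi-Cre cells. The tip shares lay under those of T cell-like cells, 16.4% and 16.1%.

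Gpx2, the gastrointestinal peroxidase, was highest in stem-like cells, at 978 and 749 CPM, and stood at 686 and 608 in TA-like cells, 661 and 571 at the villus bottom, 192 and 219 in mid-villus-like cells and 10.1 and 17.4 at the tip. Stem-like and TA-like cells thus stood in opposite order for these peroxidases. The level of TA-like over stem-like cells was 1.68 (1.53 to 1.85) and 1.68 (1.58 to 1.79) for Gpx1, and 0.701 (0.641 to 0.767) and 0.812 (0.761 to 0.866) for Gpx2. In the 40 stem-like control cells a single cell held 22% of the Gpx1 UMIs and 13% of the Gpx2 UMIs.

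The reductases were low in stem-like cells and high in TA-like and villus bottom-like cells. Akr1c13 had 52.3 and 36.1 CPM in stem-like cells, 123 and 107 in TA-like cells, 138 and 119 in villus bottom-like cells and 26.4 and 22.6 in mid-villus-like cells. Akr1c19 had 20.4 and 18.2 CPM in stem-like cells, 99.5 and 102 in TA-like cells, 86.5 and 93 at the villus bottom and 8.91 and 8.61 in mid-villus-like cells. The TA-like level over the stem-like level was 2.35 (1.72 to 3.26) and 2.95 (2.36 to 3.73) for Akr1c13 and 4.89 (3.07 to 8.16) and 5.61 (4.17 to 7.68) for Akr1c19, beyond counting error in both libraries. At the tip Akr1c13 was left with 1 and 6 UMIs and Akr1c19 with 0 and 7 UMIs. Akr1c19 was 68.5-fold lower at the tip than at the bottom in the control library when 3 UMIs were set in place of 0. The lower limit of the exact interval of this fold was 55.5. In the Villi-Cre library Akr1c19 was 87.6-fold lower (42.4 to 219). Both genes lie on chromosome 13 of GRCm38 (Akr1c13 at chr13:4191150-4205596 and Akr1c19 at chr13:4228700-4252843, plus strand). The last 400 bases of the Akr1c13 transcript were 91.2% identical to Akr1c12, so some reads may not tell these 2 apart.

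Among the transferases, the mu-class genes reached their highest enterocyte levels in mid-villus-like cells. Gstm3 had 18.4 and 18 CPM in crypt-like, 165 and 170.0 in villus bottom-like, 201 and 201 in mid-villus-like and 3.37 and 5 in villus tip-like cells. Gstm1 had 18 and 21.7 CPM in crypt-like, 41.6 and 40.2 in villus bottom-like, 72.4 and 78.4 in mid-villus-like and 2.52 and 3.33 in villus tip-like cells. The mid-villus level over the bottom level was 1.74 (1.48 to 2.06) and 1.95 (1.74 to 2.19) for Gstm1, and 1.22 (1.12 to 1.33) and 1.18 (1.12 to 1.26) for Gstm3. The mid-villus-like clusters differed, with Gstm3 at 280 and 266, 159 and 160, and 51.3 and 63.2 CPM. Only the first of these clusters was above the villus bottom level. Both lie on chromosome 3 (Gstm3 at chr3:107963696-107969283 and Gstm1 at chr3:108012255-108017973, minus strand), and 325 of the last 400 bases of the Gstm1 transcript aligned to Gstm3 at 91.4% identity. Among the classes, the pi-class Gstp1 was highest at the villus bottom, and its levels are given with the genotypes. The mid-villus-like cluster with the most Gstm3 had 66.7 and 118 CPM of Gstp1, beside 60.1 and 122 at the villus bottom.

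Of the cytochromes, Cyp3a11 was low up to the villus bottom and highest in mid-to-tip cells. It had 19.3 and 30 CPM in crypt-like and 25 and 23 in villus bottom-like cells, and then 383 and 357 in mid-villus-like, 931 and 1012 in mid-to-tip and 655 and 766 in villus tip-like cells. Its crypt and villus bottom levels were under those of T cell-like cells (36.7 and 69.5 CPM). The T cell-like cells were shallower, with a median of 4582 and 4010 UMIs beside 21583 and 20488 at the villus bottom. Levels at such unlike depth cannot show whether these UMIs are background, which was not tested. The tip level was 26.2-fold that of the bottom in the control library (21.8 to 31.9) and 33.3-fold in the Villi-Cre library (29.2 to 38.1). These folds depend on the low bottom level, which may be background. Other settings gave 4.66 to 50.6 and 4.71 to 42.4, lowest with 3 bins of a zonation score in place of the classes. In control cells thinned to 2000 UMIs, 2.55% of villus bottom-like, 43% of mid-villus-like, 70% of mid-to-tip and 60.1% of villus tip-like cells held a Cyp3a11 UMI, and 4.99% of T cell-like cells did.

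Cyp3a25 had its highest level in mid-villus-like cells, at 287 and 234 CPM, against 51.8 and 48 at the villus bottom, 148 and 109.7 in mid-to-tip cells and 35.3 and 44.7 at the tip. It was the member past 2-fold in neither direction between bottom and tip. Its fold of tip over bottom was 0.682 (0.526 to 0.877) and 0.932 (0.804 to 1.08), and this fold went from 0.238 to 1.65 in the control library and from 0.283 to 1.65 in the Villi-Cre library with the way the classes were drawn. Both cytochromes lie on chromosome 5 (Cyp3a11 at chr5:145854426-145879964 and Cyp3a25 at chr5:145977194-146009618, minus strand).

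**Figure D2:**
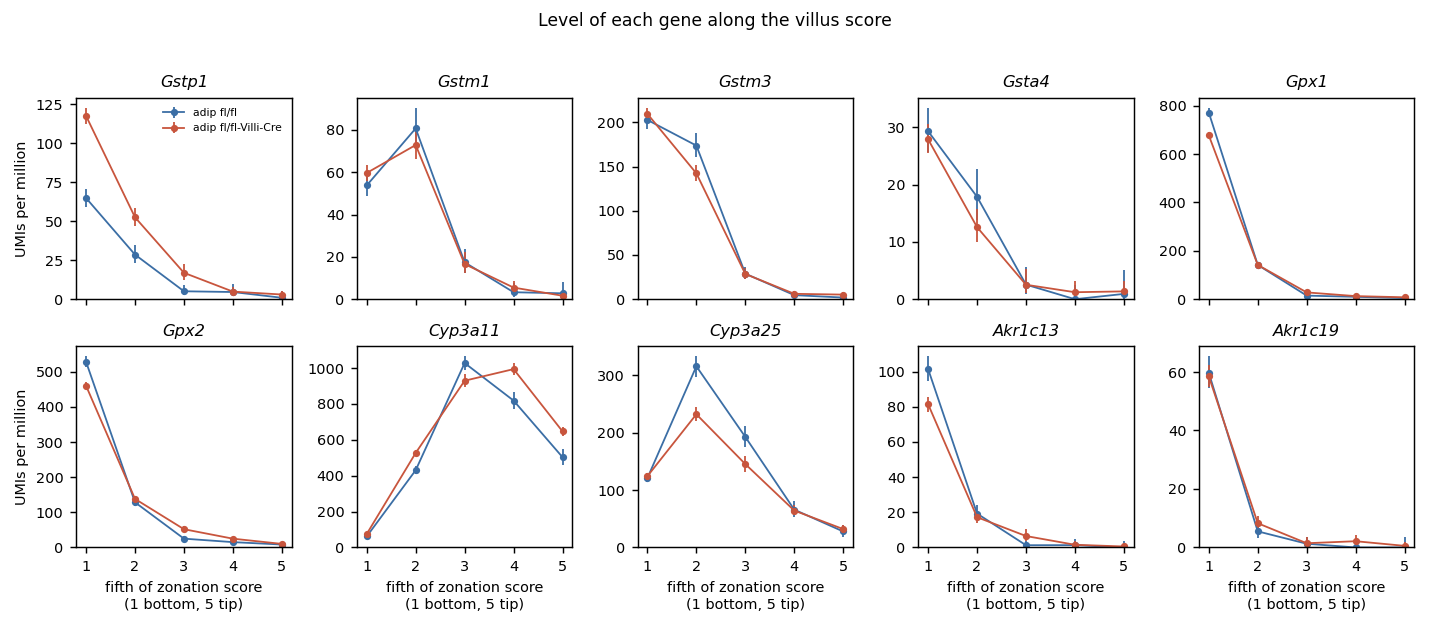
UMIs per 1000000 UMIs of each gene in 5 bins of a zonation score with about equal numbers of cells, over 5880 enterocyte-like cells (bin 1 villus bottom, bin 5 tip), for adip fl/fl (control) and adip fl/fl-Villi-Cre with exact 95% Poisson intervals. Cyp3a25 was highest in bin 2 at 316 and 232, Cyp3a11 in bin 3 or 4, and Gpx1, Gpx2, Gsta4, Akr1c13, Akr1c19, Gstp1 and Gstm3 in bin 1.

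A zonation score, the share of tip landmark UMIs among tip and bottom landmark UMIs, placed the profiles of the 5880 cells of the 4 enterocyte classes on a finer scale. The limits of its 5 bins were chosen after the data were seen. Bin 1 held 558 villus bottom-like and 609 mid-villus-like cells, and bin 5 held 1165 villus tip-like cells. Cyp3a11 had 61.4, 430.5, 1028, 819 and 503 CPM from bin 1 to bin 5 in the control library and 75.1, 527, 929, 994 and 647 in the Villi-Cre library, so that the level in the last bin was below the highest in both. Cyp3a25 had 121, 316, 193, 65.9 and 27.8 CPM and 124, 232, 145, 64.3 and 32 CPM over the same bins. Gstm1 was highest in bin 2 in both libraries, at 80.6 and 72.8 CPM, while Gstm3 was highest in bin 1, at 203 and 210 CPM.

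Outside the absorptive lineage, Gsta4, a transferase known for lipid peroxidation products such as 4-hydroxynonenal, was highest in goblet-like cells. It had 243 CPM there in the control library (222 to 267) and 238 in the Villi-Cre library (223 to 255), against 28.7 and 30.3 at the villus bottom and 0.421 and 1.06 at the tip. The goblet-like level over the villus bottom level was 8.48 (7 to 10.3) and 7.86 (6.90 to 8.97). The summed level of the 9 Paneth cell markers in goblet-like cells was 5269 and 2799 CPM, so these cells were not free of Paneth transcripts. Gpx1 had 669 and 816 CPM in myeloid-like cells and 91.2 and 90.2 in T cell-like cells. In enteroendocrine-like cells Akr1c13 had 117 and 175 CPM and Akr1c19 52.2 and 66 CPM. Gstm1 in myeloid-like control cells, at 77.8 CPM, rested on 20 UMIs, of which a single cell held 55%.

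The genes most like each member were ranked by Pearson's r of the log2 level over 22 points, 11 classes in 2 libraries, among 7277 genes. The points come from the same 2 libraries and differ in depth, and the values are a description. Akr1c13 and Akr1c19 ranked first for each other (r = 0.952), followed by Traf4 and Atp2a2 for Akr1c13 (0.921 and 0.921) and by Abat and Akr1c12 for Akr1c19 (0.912 and 0.909). Cyp3a11 was closest to Tmigd1, Bst1 and Apoa4 (0.970, 0.959 and 0.956). Cyp3a25 was closest to Slc5a11, Lct and Leap2 (0.953, 0.952 and 0.950). Apoa4 and Lct were themselves among the markers used to name villus tip-like and mid-villus-like cells. Gpx1 was closest to Atp13a3, Fam104a and Tmem147 (0.936, 0.935 and 0.934). Gpx2 was closest to Cenpv, Aldh1b1 and Vdac1 (0.969, 0.964 and 0.962). For the transferases, Gstm3 was closest to Maob, Rdh7 and Aldh1a1 (0.957, 0.952 and 0.945). Gstm1 was closest to Cers2, Nampt and BC005537 (0.908, 0.860 and 0.814), the weakest likeness among the members. Gstp1 was closest to Ndufa4, Cox7c and Ndufc1 (0.940, 0.938 and 0.935), and Gsta4 was closest to Lrrc26, B3gnt7 and Capn8 (0.944, 0.895 and 0.893).

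Between the genotypes, Gstp1 was higher beyond counting error in the Villi-Cre library through most cell types. It had 42.3 and 74.6 CPM in crypt-like cells, 60.1 and 122 at the villus bottom, 45.4 and 82 in mid-villus-like cells and 2.52 and 3.33 at the tip. The fold of Villi-Cre over control was 1.76 (1.42 to 2.21) in crypt-like, 2.02 (1.78 to 2.31) in villus bottom-like and 1.81 (1.59 to 2.05) in mid-villus-like cells. At the tip it had 6 and 22 UMIs, under the minimum of 10 CPM for a comparison. Over all kept cells Gstp1 had 33.7 and 67.1 CPM from 866 and 3280 UMIs, a fold of 1.99 (1.85 to 2.15).

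The higher Gstp1 level of the Villi-Cre library was found in each of the 13 clusters with at least 20 Gstp1 UMIs over both libraries. Their folds went from 1.56 to 4.60, with every interval above 1. A cluster could pass this limit through its Villi-Cre UMIs, and the fold of 4.60 rested on 4 and 17 UMIs. Clusters of both libraries with fewer UMIs had folds from 0.491 to 2.90 and intervals that included 1. Clusters of the same libraries are not replicates, so these counts are a description. In T cell-like cells Gstp1 had 17.8 and 35.3 CPM, which gave 1.98 (1.28 to 3.13) for Villi-Cre over control. Cyp3a11 had a fold of 1.89 (1.40 to 2.59) there. Of its 20 clusters with at least 20 Cyp3a11 UMIs, 9 had intervals above 1 and 0 below 1. In T cell-like cells the summed level of 8 enterocyte markers was 3779 and 9393 CPM and that of 7 goblet cell markers 307 and 4085. Their part in these differences was not tested. In cells thinned to 2000 UMIs, 9.18% of villus bottom-like control cells (5.53% to 14.1%) and 16.6% of Villi-Cre cells (13.1% to 20.7%) held a Gstp1 UMI, beside 3.23% and 7.14% of T cell-like cells.

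**Figure D3:**
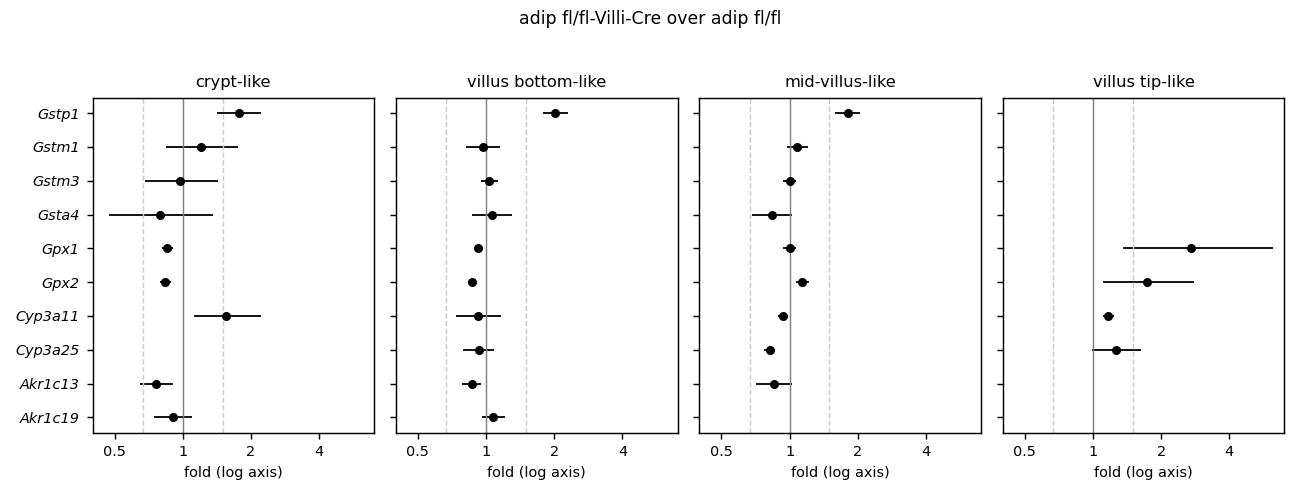
Fold of adip fl/fl-Villi-Cre over adip fl/fl (log axis) for each gene with enough UMIs in crypt-like, villus bottom-like, mid-villus-like and villus tip-like cells. Points are the ratio of UMIs per 1000000 UMIs of 1 library each and bars are exact 95% intervals of counting error; Gstp1 lay at 1.76, 2.02 and 1.81 in the first 3 classes.

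Besides Gstp1, Cyp3a11 was past 1.5-fold in crypt-like cells, at 1.56 (1.12 to 2.21), where its low level may be background. For Cyp3a11, TA-like cells gave 2.22 (1.43 to 3.57) from 25 and 113 UMIs. Stem-like cells gave 0.964 (0.576 to 1.67) from 21 and 57 UMIs. Counting Gstp1 and Cyp3a11, 2 of the 9 members with enough UMIs were higher and 0 lower in crypt-like cells of the Villi-Cre library. There 3.7% of all genes were higher and 2.02% lower by at least 1.5-fold. In villus bottom-like cells 1 of 10 was higher and 0 lower (1.18% and 1.08% of all genes), and in mid-villus-like cells 1 of 9 was higher and 0 lower (1.11% and 0.939%). In villus tip-like cells 2 of 4 were higher and 0 lower (5.33% and 3.23%). These were Gpx1 with 9 and 68 UMIs, a fold of 2.72 (1.35 to 6.21), and Gpx2 with 24 and 115 UMIs, a fold of 1.73 (1.10 to 2.80). Gpx1, at 3.79 and 10.3 CPM, met the minimum of 10 CPM only in the Villi-Cre library. With its control level it could enter this count only as higher. Gpx1 at the tip was under its level in T cell-like cells, and neither gene was past 1.5-fold at the tip with 30 principal components or integrated libraries. Of 6426 genes with enough UMIs in crypt-like, villus bottom-like and mid-villus-like cells alike, 22 were at least 1.5-fold higher in all 3 and 5 at least 1.5-fold lower, and Gstp1 was 1 of the 22.

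Smaller differences beyond counting error were measured for several members, in both directions. Gpx1 had folds of 0.855 (0.811 to 0.902) in crypt-like and 0.923 (0.893 to 0.955) in villus bottom-like cells, and Gpx2 of 0.838 (0.793 to 0.885) and 0.865 (0.828 to 0.903). Both peroxidases were thus lower in the Villi-Cre library in these classes. Akr1c13 had folds of 0.763 (0.645 to 0.903) and 0.862 (0.784 to 0.949) in the same classes. Stem-like cells alone gave 0.691 (0.493 to 0.978) for Akr1c13 and TA-like cells 0.867 (0.715 to 1.05). For Gpx1 they gave 0.891 (0.813 to 0.978) and 0.890 (0.834 to 0.950), so the crypt-like fold was below both. For Gpx2 they gave 0.766 (0.710 to 0.826) and 0.887 (0.818 to 0.962), on either side of the crypt-like fold. The mix of stem-like and TA-like cells in the crypt-like class differed between the libraries, and its part in the crypt-like folds was not tested. Gstm1 had 1.80 (1.03 to 3.37) in stem-like cells from 15 and 76 UMIs. In TA-like cells Cyp3a25 had 2.86 (1.19 to 8.33) from 6 and 35 UMIs, with at least 10 CPM only in the Villi-Cre library. Cyp3a25 had a fold of 0.816 (0.771 to 0.862) in mid-villus-like cells, while Gstm3 had 1.00 (0.938 to 1.07) there. Gpx2 was higher in mid-villus-like cells of the Villi-Cre library, at 1.14 (1.07 to 1.22), against its direction in the other classes just named. Other settings gave 0.992 to 1.47 for this fold. Cyp3a11 had 1.17 (1.10 to 1.24) at the tip and 0.933 (0.890 to 0.978) in mid-villus-like cells. Within the mid-villus-like clusters its fold was 1.01 (0.940 to 1.09), 0.908 (0.822 to 1.005) and 0.981 (0.907 to 1.06), so each interval included 1. Other settings gave 0.856 to 1.03 for the mid-villus-like fold. In the bins of the zonation score, from bottom to tip, the Cyp3a11 fold was 1.22, 1.22, 0.904, 1.21 and 1.29. Outside these classes, goblet-like and T cell-like cells, other folds beyond counting error went in both directions. Akr1c13 had 1.73 (1.07 to 2.87) in tuft-like and 1.497 (1.03 to 2.19) in enteroendocrine-like cells. Cyp3a11 had 2.16 (1.31 to 3.67) in enteroendocrine-like and 1.09 (1.02 to 1.16) in mid-to-tip cells. Gstp1 had 4.03 (1.65 to 11.8) in mid-to-tip and 2.55 (1.47 to 4.64) in tuft-like cells. The mid-to-tip fold of Gstp1 rested on 6 and 30 UMIs, at 3.01 and 12.1 CPM, under its levels in T cell-like cells. Cyp3a25 had 0.743 (0.628 to 0.879) in mid-to-tip cells and Gstm1 0.262 (0.0499 to 0.883) in myeloid-like cells. This Gstm1 fold rested on 20 and 3 UMIs, with most of the control UMIs in a single cell.

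In goblet-like cells larger folds were measured. Gstm3 had 18.5 and 63 CPM there and a fold of 3.41 (2.38 to 5.01), Gstp1 had a fold of 1.85 (1.27 to 2.76), Cyp3a25 of 1.67 (1.28 to 2.21), Gpx2 of 1.62 (1.31 to 2.02) and Gstm1 of 1.56 (1.05 to 2.35), while Gsta4 had 0.979 (0.874 to 1.10). Enterocyte markers were also higher in goblet-like cells of the Villi-Cre library, with summed levels of 14116 and 18135 CPM for villus bottom markers, 2804 and 4663 for mid-villus markers and 13122 and 17648 for markers of all enterocytes. Every marker of these lists was detected in both libraries, and their part in these folds was not tested.

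Summed marker levels of other cell types also differed between the libraries, with all 7 goblet cell markers detected in both. Goblet cell markers had 2078 and 4257 CPM in crypt-like cells, 192 and 1334 at the villus bottom, 278 and 754 in mid-villus-like cells and 482 and 1338 at the tip. In crypt-like cells Paneth cell markers had 39.8 and 394 CPM (7 and 9 of 9 detected), T cell markers 27.2 and 246 (7 and 8 of 8) and fibroblast or smooth muscle markers 0.837 and 127 (1 and 5 of 5). At the villus bottom T cell markers had 31.8 and 183 CPM (8 of 8 in both) and B or plasma cell markers 17.1 and 480.1 (4 of 6 in both). Their part in the differences between the genotypes was not tested.

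Gstp1 lies on chromosome 19 (chr19:4035407-4037985, minus strand, GRCm38) and has near-identical copies. The last 400 bases of its transcript matched Gstp2 at 98.8% identity over 400 bases and the pseudogene Gstp-ps at 98.5% over 334 bases. Reads of a 3′ kit may therefore not tell these genes apart, and the level of Gstp1 alone is uncertain. Gstp2 was also higher in the Villi-Cre library, with 102 and 337 UMIs and a fold of 1.74 (1.39 to 2.19) over all kept cells. Over the same cells Gstp3 had 185 and 294 UMIs and a fold of 0.835 (0.692 to 1.01). Gstp-ps had 278 and 497 UMIs and a fold of 0.939 (0.809 to 1.09). At the villus bottom both were lower beyond counting error, Gstp3 at 0.728 (0.559 to 0.951) and Gstp-ps at 0.724 (0.561 to 0.937). Gstp-ps was also lower beyond counting error in crypt-like cells, at 0.531, while Gstp3 was within it there. In mid-villus-like, goblet-like and T cell-like cells both were within counting error. The part of read assignment in these folds was not tested. With the UMIs of Gstp1, Gstp2 and Gstp-ps added together the fold was 1.73 (1.63 to 1.85) over all kept cells and 1.68 (1.51 to 1.88) at the villus bottom. The sum of the 3 similar genes was therefore still higher in the Villi-Cre library, by less than Gstp1 alone.

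**Figure D4:**
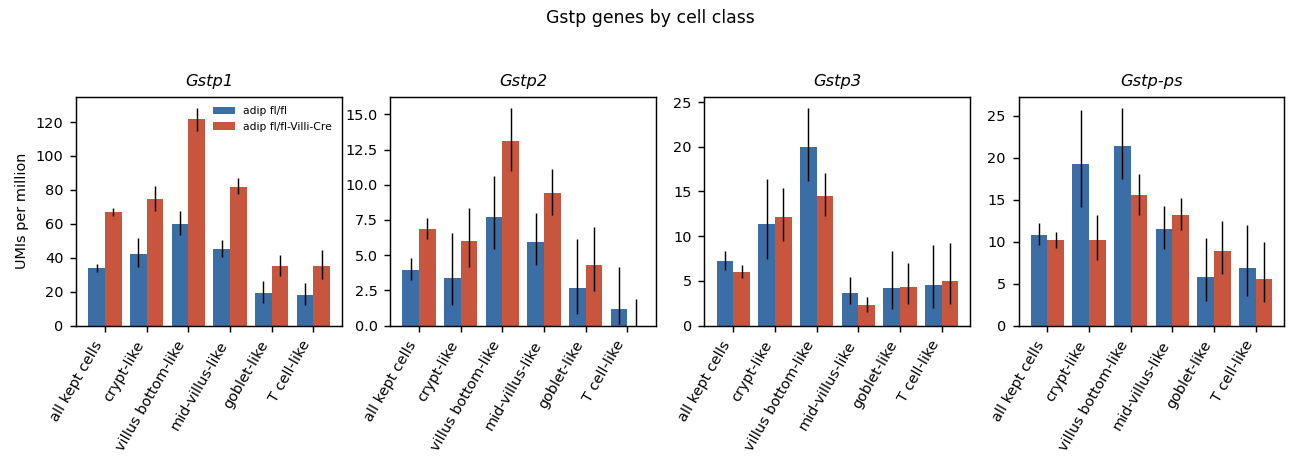
UMIs per 1000000 UMIs (axes from 0) of Gstp1, Gstp2, Gstp3 and the pseudogene Gstp-ps in all kept cells and by class, for adip fl/fl (control) and adip fl/fl-Villi-Cre, with exact 95% Poisson intervals. Over all kept cells Gstp1 had 33.7 and 67.1, and in crypt-like cells Gstp-ps had 19.3 and 10.2.

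The 250 bases before the RefSeq starts of Gstp1, Gstp2 and Gstp3 (GRCm38.p6, minus strand) are shown because Gstp1 and Gstp2 were higher in the Villi-Cre library and Gstp3 was not. The xenobiotic response core GCGTG, searched on both strands, is in capitals. It is present before Gstp1 and Gstp3 and absent before Gstp2. A link between these sequences and the genotype difference was not tested.
Gstp1, chr19:4037913-4038162: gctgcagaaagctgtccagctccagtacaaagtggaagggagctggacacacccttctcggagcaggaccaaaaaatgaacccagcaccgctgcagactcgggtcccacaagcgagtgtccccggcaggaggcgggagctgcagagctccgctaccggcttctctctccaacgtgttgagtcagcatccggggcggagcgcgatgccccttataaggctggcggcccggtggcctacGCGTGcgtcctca
Gstp2, chr19:4042222-4042471: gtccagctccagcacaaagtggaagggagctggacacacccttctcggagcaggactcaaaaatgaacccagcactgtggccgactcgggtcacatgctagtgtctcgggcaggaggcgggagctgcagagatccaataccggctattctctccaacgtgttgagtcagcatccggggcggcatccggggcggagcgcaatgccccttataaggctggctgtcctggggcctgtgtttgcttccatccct
Gstp3, chr19:4059448-4059697: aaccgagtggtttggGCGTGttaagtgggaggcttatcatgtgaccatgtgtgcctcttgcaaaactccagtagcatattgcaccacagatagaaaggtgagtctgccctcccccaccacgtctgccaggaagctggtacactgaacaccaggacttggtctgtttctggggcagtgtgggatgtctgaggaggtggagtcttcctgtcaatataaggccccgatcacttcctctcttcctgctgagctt

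Upstream sequences were found for 9 of the 10 members. The core GCGTG was present before 3 of them, Gstp1, Gstm1 and Gpx1, and before 30.9% of 27025 genes. The antioxidant response core TGACNNNGC, searched on both strands, was present before 0 of the 9 members and before 11.5% of the 27025 genes. Only this spelling of the core was searched. The sequences before Gstp1 and Gstp2 both hold tgagtcagc, which differs from this core only by G in place of C. The sequence before Gstp3 holds tgagtctgc, with the same difference. Forms with this G were not counted, so the 0 holds for the searched spelling only. The counted matches describe the letters in this window only.

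Related enzymes from 9 lists, 135 genes in all, were set beside the members. Of the 92 with enough UMIs in both libraries, 55 were at least 2-fold lower at the tip than at the bottom in both and 8 at least 2-fold higher. Among all genes the shares were 52.6% and 51.8% lower and 12.5% and 12.4% higher in the separate libraries. Levels below are from the control library, and the tip to bottom counts are of genes past 2-fold in both libraries. Among the other transferases 13 of 15 were lower and 0 higher. Gsta1 had 262 CPM at the bottom and 2.95 at the tip, and the microsomal Mgst1 801 CPM at the bottom and 16.8 at the tip. Among genes of glutathione synthesis and recycling 7 of 10 were lower and 1 higher. Gsr, which regenerates reduced glutathione, had 332 CPM at the bottom and 7.15 at the tip, while Ggt1, which cleaves extracellular glutathione, had 191 CPM at the bottom and 669.8 at the tip. Among the other peroxidases and antioxidant enzymes 11 of 17 were lower and 1 higher, and the peroxiredoxin Prdx6 had 442 CPM at the bottom and 14.7 at the tip.

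The other cytochromes and their reductases held 6 of the 8 genes that were higher at the tip, with 6 of 16 higher and 6 lower. Por, which passes electrons to microsomal cytochromes P450, had 69.7 CPM at the bottom and 552 at the tip, a fold of 7.92, and a fold of 6.54 in the Villi-Cre library. Cyb5a, an electron donor to some of them, had 734 CPM at the bottom and 61.4 at the tip. Of the other aldo-keto reductases 5 of 7 were lower, and Akr1c12 had 108 CPM at the bottom and 2.10 at the tip. Of the glucuronosyltransferases and sulfotransferases 6 of 8 were lower, and Ugt2a3 had 127 CPM at the bottom and 10.9 at the tip. Of the carboxylesterases 2 of 5 were lower, of the efflux transporters 1 of 4, and of the sensors and regulators 4 of 10. Nfe2l2, the factor known to drive antioxidant genes, had 307 CPM at the bottom and 105 at the tip.

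Between the genotypes, counts of list genes past 1.5-fold are given with the shares of all genes. In villus bottom-like cells 1 of 95 was higher in the Villi-Cre library and 1 lower, namely Gstp2 at 1.70 (1.17 to 2.52) and Cyp2c66 at 0.607 (0.469 to 0.786), both named after their values were seen (1.18% and 1.08% of all genes). In crypt-like cells 4 of 79 were higher and 2 lower (3.7% and 2.02%), in mid-villus-like cells 2 of 88 higher and 1 lower (1.11% and 0.939%), and in villus tip-like cells 6 of 63 higher and 0 lower (5.33% and 3.23%). Abcc3, an efflux transporter also named after its values were seen, had folds of 1.54 (1.10 to 2.19) in crypt-like and 2.14 (1.67 to 2.77) in mid-villus-like cells.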

How the data were processed

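The authors deposited raw, unnormalized UMI counts, 1 matrix for each library. They were made, per the labels and the study's methods, with bcl2fastq 5.0.1 and Cell Ranger, for which the file headers give 7.1.0 and the methods another version, and the submitters' processing notes name the build mm10. The members and lists were chosen with earlier results of these data known. Barcodes with more than 500 genes and under 25% of UMIs from genes named mt- were kept. These filters follow the study's methods, but fewer cells were left in both libraries than the study states. Seurat 5.3.0 under R 4.3.3 was used for LogNormalize (scale factor 10000), 2000 variable genes without the members and lists, 20 principal components and Louvain clusters at resolution 0.8, and crypt clusters were split at 0.4. A name needed 3 markers at least 2-fold higher with 10 UMIs. Doublets were kept, since Scrublet (scanpy 1.11.5) called too few cells to have worked.

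UMIs were summed per class and scaled to 1000000. Intervals were exact Poisson, conditional binomial (folds) or Clopper-Pearson (shares) at 95%, and PCR and sampling of animals are not covered. A fold against 0 UMIs used 3 UMIs. Genes counted as measured had at least 10 CPM in the higher group and 20 UMIs in all. Named genes were the members, the 3 most alike by r of log2(CPM + 10), and up to 4 per list with at least 50 CPM and the same fold direction in both libraries. Coordinates came from GENCODE M21, transcripts were compared with BLAST 2.17.0, and the fold script was tested on simulated counts. Thinning to 2000 UMIs left out 179 and 296 cells. Alternatives changed filters, clustering, doublets, integration, denominator, weights, depth and class limits.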

Additional observations from a re-analysis of the deposited data

Results flagged for a closer look

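The control library is that of adip fl/fl mice. In barcodes over the mitochondrial limit, which the reported classes left out, 2 members were higher in the Villi-Cre library than in the control library. Their intervals did not overlap. The alternative setting with the mitochondrial share from protein-coding genes kept 17366 cells, and so took in most of these barcodes. Gstp1 had 4.92 CPM over 4670 barcodes of the control library (3.82 to 6.25) and 9.45 CPM over 4263 barcodes of the Villi-Cre library (7.78 to 11.4), both under the minimum of 10 CPM used for comparisons. Cyp3a11 had 621 CPM (608 to 635) and 706 CPM (691 to 721) in the same barcodes. Cyp3a25 went the other way, with 138 CPM (132 to 145) and 104 CPM (98.6 to 110.3). With mitochondrial UMIs left out of the total, Gstp1 had 7.65 and 14.1, Cyp3a11 965 and 1051, and Cyp3a25 215 and 155. The cell types of these barcodes were not assigned.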

How the results depend on the processing

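No paired analysis was possible because each genotype has 1 library, and leaving out a replicate was not possible for the same reason. The members at least 2-fold lower at the tip numbered 8 or 9 and those higher 1, in each library, under every alternative that gave them. With the mitochondrial limit of 10% no cluster was named villus tip-like, so the tip could not be computed. The number of members at least 1.5-fold higher in the Villi-Cre library in crypt-like cells was 1 in place of 2 with the mitochondrial share from protein-coding genes, with the highest doublet scores removed, with equal weight per cell and with cells thinned to 2000 UMIs, where 2 members were also lower. In villus tip-like cells it was 0 with 30 principal components and with integrated libraries and 1 with 3 bins of the zonation score, which gave 2 in mid-villus-like cells. Thinning gave 2 in villus bottom-like cells. The Cyp3a11 fold in crypt-like cells turned to 0.985 with thinning, and the Gpx2 fold at the tip to 0.979 with 3 bins of the zonation score. The Gstp1 fold ranged from 1.7 to 11.4 in crypt-like cells (the highest with thinning, which left few UMIs), from 1.82 to 2.35 in villus bottom-like and from 1.67 to 2.48 in mid-villus-like cells, where the mean of the folds within clusters, added after the data were seen, gave 1.95. Cyp3a11 kept a fold of at least 4.66 of tip over bottom in both libraries. Of the folds of single members 615 stayed within the reported interval, 91 left it and 2, those given above, changed direction after being past the fold limit. Counting also folds that were not past it, 67 lay on the other side of 1, of which 42 were within the reported interval. Those outside it included Cyp3a25 of tip over bottom in the control library (1.65 with 30 principal components) and Gstm1 in crypt-like cells (0.505 with thinning) and Akr1c13 in mid-villus-like cells (2.01 with 3 bins of the zonation score) between the genotypes. The cause was not tested.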
